A study of Mus musculus with 12 samples.

Results

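At Week 1 of pellet culture, the methylation of a gene's DNA was set against its expression across the genome of mouse articular chondrocytes. The report uses the 6 Week 1 libraries of the 12 libraries in the series, 3 of RNA-seq and 3 of enhanced reduced representation bisulfite sequencing (ERRBS), which digests DNA with MspI and so reads mostly CpG-dense fragments. The source was cartilage of the femoral head and tibial plateau, taken from C57BL/6J mice aged 5 to 6 days. They were grown in monolayer in DMEM/F12 with serum, then as 3D pellets with ascorbic acid and ITS, and harvested on day 7. No genotype or drug separates the libraries, and monolayer growth before pelleting is shared by all of them. Nothing in the labels states if replicates are separate cultures or animals, or if an RNA and a DNA library with the same number share a pellet. The p-values below take the 3 ERRBS libraries as units, and the spread between these may be technical. Each p is 0.25 whenever all 3 differences share a sign, whatever their spread.

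DNA methylation in mammals sits mainly on the cytosine of CpG pairs. Most CpG-dense promoters, known as CpG islands, stay unmethylated in body cells whether or not their gene is transcribed, and a methylated promoter of this type is usually silent. CpG-poor promoters are often methylated, and the transcribed body of an active gene is known to carry methylation laid down behind the polymerase. Cartilage genes such as Col2a1 and Acan, germline genes, developmental transcription factors and imprinted genes differ in which of these patterns they are known for.

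A gene was represented by its RefSeq transcript with the highest count, and counts given to its other transcripts were left out. In this way 22980 genes were placed on chromosomes 1 to 19 and X. Their expression is given in CPM, the count scaled to its library's TMM-adjusted (effective) size, and, where genes are ranked against each other, also in CPM per kb of transcript. Methylation is the percent of reads that kept C at a site, averaged over the sites of a region that were covered at least 10 times in each of the 3 ERRBS libraries. With at least 3 such sites required, the promoter (1500 bp before to 500 bp after the 5′ end) was measured in 14099 genes, the first intron in 10477 and the gene body in 16631. All 3 regions were measured in 9391 genes.

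The patterns can be read on 5 stretches of 250 bases that lie directly before the RefSeq 5′ end, shown because they stand for the kinds of promoter the results turn on. They are written 5′ to 3′ on the gene's strand, from RefSeq on GRCm38.p6, with each CpG in capitals. Acan, the gene of the cartilage proteoglycan aggrecan, is highly expressed (chr7:79052976-79053225, plus strand). Lhx4, a LIM homeobox factor of pituitary and motor neurons, had 0 counts (chr1:155742028-155742277, minus strand). Mael, needed in the germline for transposon control, had almost no counts (chr1:166238745-166238994, minus strand). Hormad1, a protein of meiotic chromosome axes, had 0 counts (chr3:95559427-95559676, plus strand). Col9a1, which encodes a chain of cartilage collagen IX, is highly expressed (chr1:24177360-24177609, plus strand).
Acan: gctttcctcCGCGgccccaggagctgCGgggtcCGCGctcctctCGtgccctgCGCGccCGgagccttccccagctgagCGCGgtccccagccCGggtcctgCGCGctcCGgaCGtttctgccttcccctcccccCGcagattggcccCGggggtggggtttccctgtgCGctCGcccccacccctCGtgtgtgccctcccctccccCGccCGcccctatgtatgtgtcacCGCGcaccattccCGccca
Lhx4: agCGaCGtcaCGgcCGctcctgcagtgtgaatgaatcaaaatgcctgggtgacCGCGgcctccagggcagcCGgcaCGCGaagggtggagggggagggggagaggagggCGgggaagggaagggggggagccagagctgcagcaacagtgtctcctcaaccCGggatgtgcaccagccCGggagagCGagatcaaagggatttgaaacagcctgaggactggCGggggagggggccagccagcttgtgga
Mael: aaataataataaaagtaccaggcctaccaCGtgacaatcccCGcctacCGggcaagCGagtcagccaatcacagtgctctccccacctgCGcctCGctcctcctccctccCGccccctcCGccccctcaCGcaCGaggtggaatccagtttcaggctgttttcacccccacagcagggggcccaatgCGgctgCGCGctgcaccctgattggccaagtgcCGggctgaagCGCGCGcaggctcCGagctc
Hormad1: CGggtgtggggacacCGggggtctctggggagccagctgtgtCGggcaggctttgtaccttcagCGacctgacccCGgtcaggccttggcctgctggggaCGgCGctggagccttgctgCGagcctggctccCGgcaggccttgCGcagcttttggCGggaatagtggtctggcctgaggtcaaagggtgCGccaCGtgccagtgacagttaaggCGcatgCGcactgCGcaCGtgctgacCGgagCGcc
Col9a1: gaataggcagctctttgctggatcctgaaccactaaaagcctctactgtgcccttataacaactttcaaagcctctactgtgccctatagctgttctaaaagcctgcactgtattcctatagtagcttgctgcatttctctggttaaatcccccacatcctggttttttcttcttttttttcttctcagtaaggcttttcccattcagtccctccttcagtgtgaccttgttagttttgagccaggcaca
The Acan stretch holds 26 CpGs, and its 6 measured cytosines averaged 0.424% ± 0.734 (SD, n = 3 libraries). The 14 CpGs of the Lhx4 stretch had 14 measured cytosines at 0.383% ± 0.348. In Mael, 11 cytosines over 18 CpGs averaged 87.5% ± 1.77, and in Hormad1, 18 cytosines over 19 CpGs averaged 82.5% ± 1.52. A CpG has a cytosine on each strand, counted apart here, so only part of each stretch was measured, the smallest part in Acan. The measured cytosines of dense CpGs were nearly free of methylation in an expressed gene and in a silent homeobox gene. In both germline genes they were almost fully methylated. The Col9a1 stretch holds 0 CpGs and no measured cytosine.

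The RNA-seq libraries held 14361905 to 15893331 counts over genes. The ERRBS libraries listed 1220867 to 2131385 cytosines, with a median coverage of 41, 47 and 16 in replicates 1, 2 and 3, so the third was the shallowest and limited the 1215104 cytosines shared by all. Over the shared cytosines the libraries differed little, with means of 32.5%, 32.7% and 32.5%. All 7 defining chondrocyte markers checked were expressed, from 71.2 CPM for Sox9 to 12516 CPM for Col2a1, and their summed level was 26626, 13368 and 24977 CPM in RNA-seq replicates 1, 2 and 3. Replicate 2 thus stood apart, with lower cartilage matrix transcripts than the other two. All 15 fibroblast and dedifferentiated chondrocyte markers were also at 1 CPM or more, with a summed level of 27218 to 33007 CPM. Of the adipocyte markers 9 of 10 were at 1 CPM or more, and they summed to 106, 283 and 122 CPM in replicates 1, 2 and 3, highest in the replicate with the lowest cartilage transcripts. Neural and Schwann cell markers (5 of 10 at 1 CPM or more) summed to 150 to 172 CPM, macrophage and leukocyte markers (9 of 14) to 58.9 to 131 CPM and skeletal muscle markers (3 of 10) to 61.6 to 79.96 CPM. Erythroid markers summed to 12.9 to 13.5 CPM, endothelial markers to 11.2 to 14.3 CPM, epithelial markers to 6.95 to 9.45 CPM and liver markers to 0.244 to 0.355 CPM. The part of other cells in the methylation levels was not tested.

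Promoters of expressed genes carried little methylation, and promoters of silent genes carried more. Among 788 measured promoters of genes with 0 counts in all 3 RNA-seq libraries, the mean methylation was 30.4%, 30.5% and 30.4% in the 3 ERRBS libraries. Among 1934 genes at 100 CPM or more it was 1.98%, 1.93% and 1.88%. Between these, the mean fell from class to class, with 26.6% below 0.1 CPM, 17.96% at 0.1 to 1 CPM, 7.84% at 1 to 10 CPM and 3.09% at 10 to 100 CPM. Over promoters of all CpG contents together, the silent class exceeded the top class by 28.5 percentage points ± 0.0855 (SD, n = 3 libraries). The gap was positive in 3 of 3 libraries and far above the spread between them, and the exact paired permutation test gave p = 0.25, 2-sided, the smallest value that 3 libraries allow. A count of 0 over the 3 libraries allows a level of up to 0.065 CPM, a limit that covers counting error only.

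The mean hides a split. Of the silent genes with a measured promoter, 47.2% lay under 5% methylation and 31.6% at 50% or more, so their median was only 6.78%. Of the genes at 100 CPM or more, 93.1% lay under 5% and 0.569% at 50% or more. Sampling differed too, because ERRBS measured the promoters of 15.8% of all genes with 0 counts and of 91.0% of the genes at 100 CPM or more. Most silent genes are therefore not represented. The gap between the classes was 10.4 points where a promoter needed at least 10 sites, and 16.2 points at a coverage of 20 or more.

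**Figure D1:**
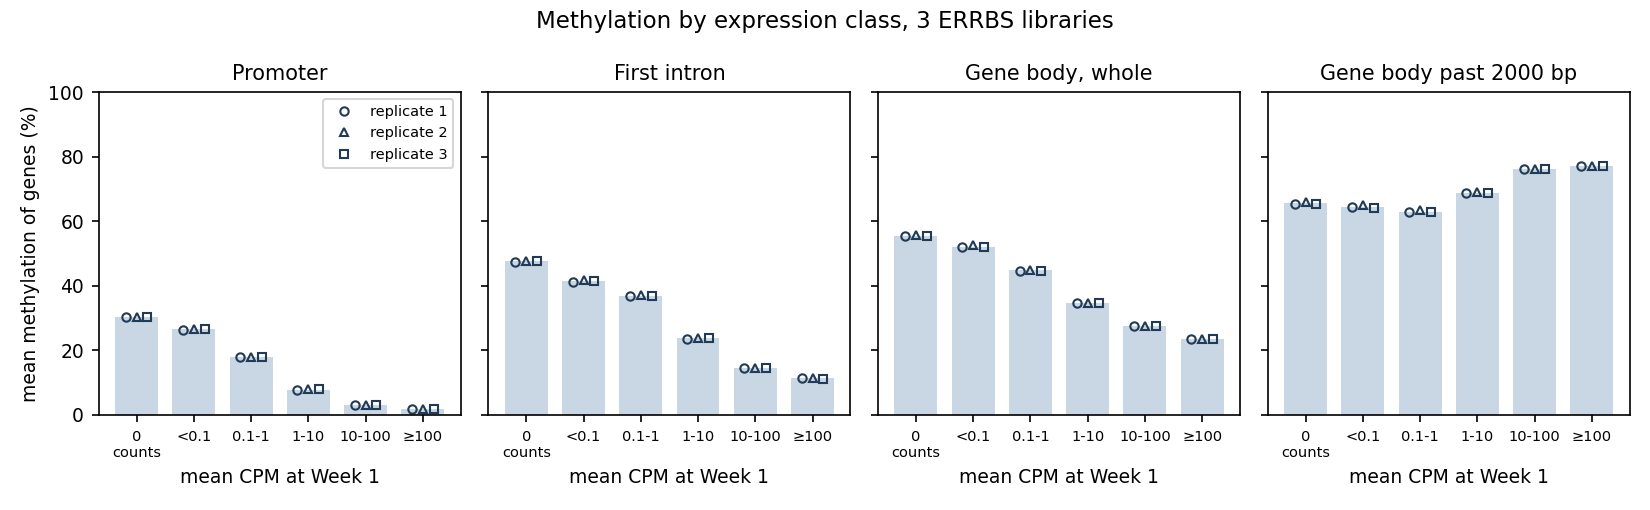
Mean methylation of genes (%, y axis) in 6 classes of mean CPM (x axis), for the promoter, the first intron, the whole gene body and the gene body past 2000 bp from the 5′ end. Bars are the mean and symbols the 3 ERRBS libraries, which nearly coincide; promoter means fell from 30.4% to 1.93%, and means past 2000 bp rose from 65.5% to 77.1%.

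Ranked across all 14099 genes, promoter methylation went down as CPM went up, with a Spearman rho of -0.386. Per kb of transcript the rho was -0.376, and over the 9 pairs of an RNA-seq and an ERRBS library it ran from -0.371 to -0.338. These correlations are descriptions across genes, which are not independent replicates and share libraries, coverage and CpG content. Among the 11235 genes at 1 CPM or more, rho was -0.187. Among the 11439 promoters already under 5%, rho was -0.237, and -0.190, -0.210 and -0.166 with the 3 ERRBS libraries taken singly. Such levels lie near the floor of the measure. Over all measured promoters, pairs of ERRBS libraries correlated at a rho of only 0.691 to 0.739. Median sites also rose with expression, from 11 at 0 counts to 43 at 100 CPM or more. Leaving out RNA-seq replicate 2, the library with lower cartilage transcripts, gave a rho of -0.385 over all 14099 genes.

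**Figure D2:**
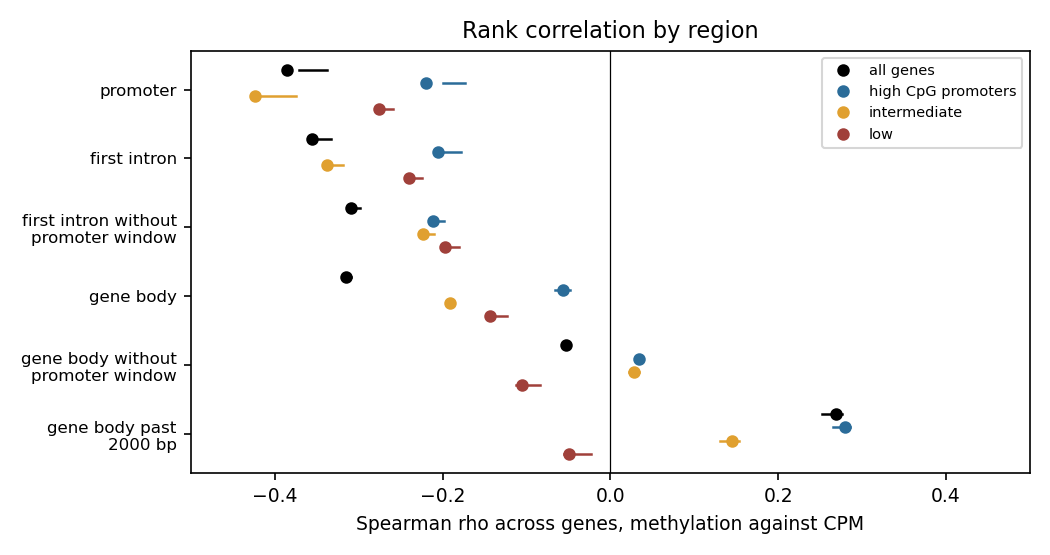
Spearman rho across genes of methylation against CPM (x axis) for 6 region definitions (y axis), in all genes and by promoter CpG content. Points use the mean of 3 libraries and lines span the 9 library pairs; rho is -0.386 at the promoter and 0.269 past 2000 bp in all genes.

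Promoter methylation differed with CpG content. Promoters were classed as high in CpG (observed over expected of at least 0.75 with at least 55% GC in a 500 bp window), low (under 0.48 in every window) or intermediate. The 10811 high CpG promoters were measured in 96.1% and averaged 2.12%. The 7576 low CpG promoters were measured in only 11.5% and averaged 52.0%, and the 4593 intermediate ones in 61.9% with an average of 16.1%. The rank correlation with CPM was steepest in the intermediate kind, with a rho of -0.424 over 2841 genes, against -0.220 over 10386 high and -0.276 over 872 low CpG promoters. High CpG promoters were 283 of the 788 measured at 0 counts and 1725 of the 1934 at 100 CPM or more. The class gap over all promoters thus mixes these kinds. Class means were 7.51% and 1.31% in high, 33.8% and 5.34% in intermediate, and 63.9% and 19.6% in low CpG promoters. The low kind had 158 and 25 genes.

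Read the other way, the methylation level of a promoter went with the share of genes expressed. Of the 11439 promoters under 5%, 86.3% belonged to genes at 1 CPM or more, with a median of 8.26 CPM per kb. Of the 565 promoters at 75% or more, 27.1% did, with a median of 0.0746 CPM per kb. In high CpG promoters the share stayed at 77.6% for 67 genes between 25 and 50% methylation, and was 45.8% for 24 genes at 50 to 75% and 19.4% for 31 genes above. In low CpG promoters it was already 32.3% for 130 genes at 25 to 50%, and 28.3% for 290 genes at 75% or more.

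**Figure D3:**
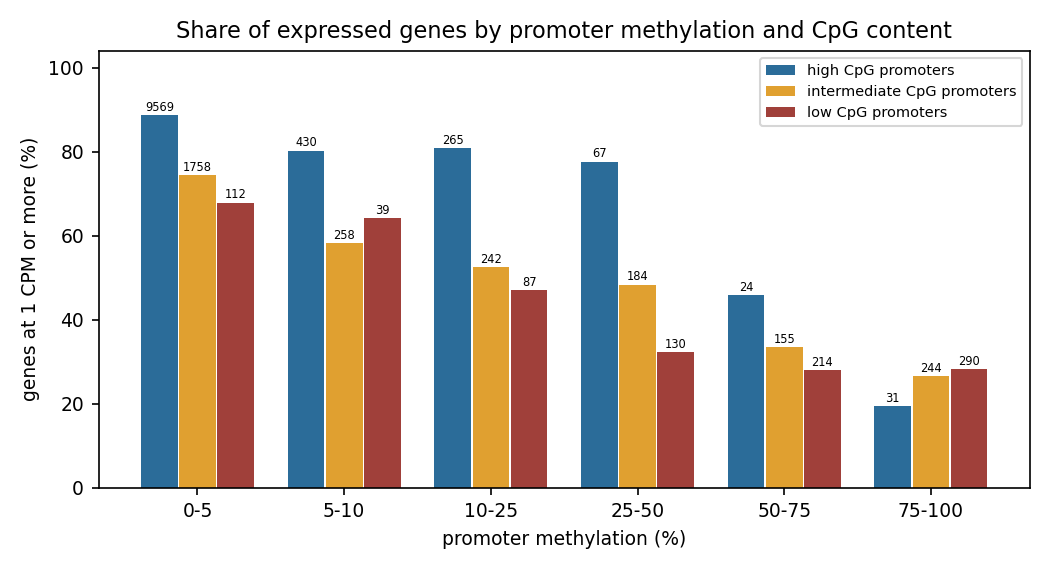
Share of genes at 1 CPM or more (%, y axis) in 6 bands of promoter methylation (%, x axis), by promoter CpG content; the number over a bar is its genes. The share falls from 88.7% of 9569 genes to 19.4% of 31 in high CpG promoters, and from 67.9% of 112 to 28.3% of 290 in low CpG promoters.

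First introns ranked as promoters did, and gene bodies ranked the other way once their first 2000 bp were left out. First introns averaged 47.6% in genes with 0 counts and 11.3% at 100 CPM or more (rho -0.355). With the promoter window cut out, rho was -0.309 over 7100 genes. First introns were measured in 11.1% and 77.2% of the genes of these 2 classes, and whole bodies in 28.9% and 96.4%. Within promoter kinds, first intron rho was -0.206 over 7673 genes with high, -0.338 over 1879 with intermediate and -0.241 over 925 with low CpG. First introns of the high kind averaged 24.7% at 0 counts and 10.0% at 100 CPM or more. Whole gene bodies averaged 55.5% and 23.6% in the same classes, a gap of 31.9 points ± 0.195 (SD, n = 3; exact paired permutation p = 0.25, the smallest possible), with a rho of -0.315. By promoter kind, the whole-body rho was -0.057 over 10274 genes with high, -0.191 over 3468 with intermediate and -0.144 over 2889 with low CpG promoters. In the high kind, whole bodies averaged 22.3% at 0 counts and 19.5% at 100 CPM or more. Without the promoter window the body rho over all genes shrank to -0.052 over 14357 genes. Past 2000 bp from the 5′ end it turned positive, to 0.269 over 12085 genes, and lay between 0.252 and 0.276 in the 9 library pairs.

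In this distal part of the body, silent genes averaged 65.2%, 65.8% and 65.4% in the 3 ERRBS libraries and genes at 100 CPM or more 77.1%, 77.2% and 77.0%. The difference of -11.6 points ± 0.234 (SD, n = 3) has the sign opposite to that of the whole body, with an exact paired permutation p of 0.25, again the smallest possible. The order was not even along the scale, as the lowest class mean was 63.0% at 0.1 to 1 CPM. It also depended on the promoter, with a rho of 0.280 over 7106 genes with high CpG promoters, 0.144 over 2562 with intermediate and -0.050 over 2417 with low ones.

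The profile around the 5′ end showed where the classes part. In the 200 bp before it, cytosines averaged 10.2% ± 0.104 in genes with 0 counts and 0.659% ± 0.0285 at 100 CPM or more (SD, n = 3 libraries). From 1000 to 1199 bp downstream the values were 13.6% and 3.60%. At 3000 to 3199 bp the order was inverted, with 23.9% in genes with 0 counts, 61.1% at 10 to 100 CPM and 51.2% at 100 CPM or more. The distal bins are thin, since the last 2 of these rest on 962 and 210 cytosines of 322 and 84 genes. Each bin averages cytosines, so genes with many measured cytosines weigh more here than in the class means, which average genes. Averaged by genes, the class with 0 counts stood at 65.5% over the whole body past 2000 bp. Far upstream the order of the silent and the top class changed from bin to bin, with 21.1% and 54.8% from -2800 to -2601 bp, where the top class rests on 183 cytosines of 76 genes, and 43.9% and 31.5% from -4200 to -4001 bp.

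**Figure D4:**
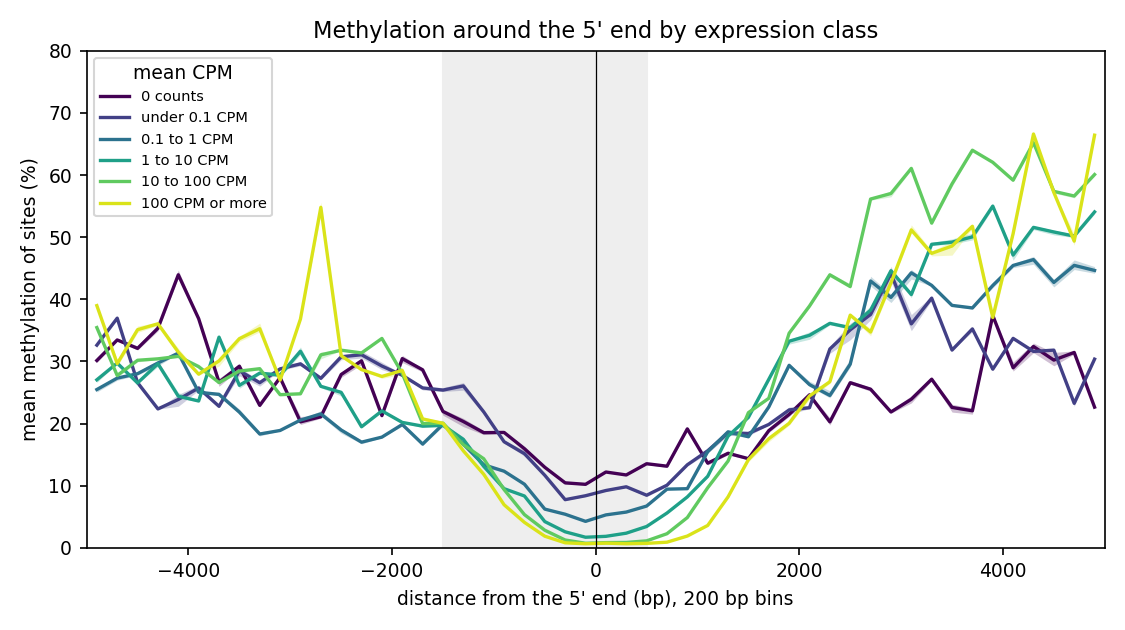
Mean methylation of cytosines (%, y axis) in 200 bp bins by distance from the 5′ end (bp, x axis) for 6 expression classes, with the promoter window in grey and bands for the range of the 3 ERRBS libraries. Genes with 0 counts lie highest at the start (10.2% against 0.659% at 100 CPM or more just before it), and the curves of these classes cross between 1000 and 3000 bp downstream and change order from bin to bin beyond 2000 bp upstream.

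Genes of the cartilage matrix combined high expression with promoters that were often not fully unmethylated. Of 25 genes in this list, all were at 1 CPM or more and 15 had a measured promoter, with 7 under 5% (46.7%), 7 between 5 and 50% and 1 at 50% or more. Over all 14099 measured promoters, 81.1% lay under 5%, 12.1% between 5 and 50% and 6.79% at 50% or more. The list's median was 5.11%, beside 0.798% over all genes, and 9 of the 15 had intermediate CpG content. Col2a1, the main collagen of cartilage, had 16287, 6861 and 14400.2 CPM and a promoter at 1.74%, 2.32% and 0.99% over 37 sites. Acan had 2493, 1477 and 2699 CPM and a promoter at 0.40%, 0.70% and 0.00% over 35 sites. Sox9, the transcription factor that drives chondrocyte genes, had a promoter at 1.03% ± 0.69 and a body past 2000 bp at 4.64%. Higher promoter levels were measured in Chad (chondroadherin), with 32.6%, 35.1% and 27.4% over 19 sites at 13.8 CPM per kb, and in Cnmd (chondromodulin), with 26.9%, 41.7% and 31.4% over 3 sites at 680 CPM per kb. Matn4, a matrilin, stood at 9.32% ± 2.73 over 14 sites. The distal body was measured in 20 of the 25 and had a median of 62.5%, beside 78.5% over all genes.

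The hypertrophy and mineralisation list had 10 measured promoters of 19, with 6 (60%) under 5%, beside 81.1% over all genes. Spp1, the mineral-binding protein osteopontin, had 3643, 5127 and 3596 CPM with a promoter at 43.1%, 48.2% and 65.1% over 5 sites. Vegfa, the vascular growth factor, had a promoter at 0.23% ± 0.21 with 1087 CPM. Ihh, the hedgehog ligand of prehypertrophic cells, lay at 1.00% ± 0.65 over 57 sites with 0.91 CPM, so both promoters lay under 5% at very different expression. Runx3 had the highest promoter of the list at 92.5%, 91.2% and 90.4% over 5 sites with 5.47 CPM, and another RefSeq 5′ end of the gene, 31900 bp away, lay at 3.24%. Col10a1, the collagen of hypertrophic cartilage, was expressed and had no measured promoter site.

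In the fibroblast list 8 of 15 promoters were measured, 6 of them (75%) under 5%, beside 81.1% over all genes. Fn1 (fibronectin) had 9758 CPM and a promoter at 0.57% ± 0.49. Col1a2, a chain of collagen I, had 6091, 4188 and 5354 CPM and a promoter at 25.4%, 19.4% and 13.6% over 11 sites, and Fap, a surface protease of activated fibroblasts, had 49.9 CPM and a promoter at 61.2% ± 3.83 over 6 sites. Of the housekeeping promoters, 18 of 19 measured (94.7%) lay under 5%, with a median of 0.419%. The exception was Hprt, a purine salvage enzyme on the X chromosome, at 27.4%, 25.2% and 23.8% over 19 sites. Eef1a1 and Eef2, translation elongation factors, lay at 0.33% and 1.11% with 1968 and 1362 CPM per kb. Gapdh and Ppia had only 24.3 and 9.68 CPM. Both have near-identical pseudogene copies. The treatment of reads that map to several places is not given in the sources used here, so these 2 levels are uncertain. How far such reads, or reads shared by overlapping transcripts, lowered other genes in the ranking by expression was not tested.

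Among genes that write, erase or read DNA methylation, 14 of 17 measured promoters (82.4%) lay under 5%, close to the 81.1% of all genes. Dnmt3a and Dnmt1, the de novo and maintenance methyltransferases, lay at 0.32% and 0.49%. Uhrf1, which guides Dnmt1 to replicated DNA, had 3.08 CPM and a promoter at 14.5%, 13.4% and 11.7% over 20 sites. Dnmt3l, a cofactor of the germline, lay at 57.4% ± 5.91 over 3 sites with 5.62 CPM.

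Germline genes showed the reverse of the housekeeping pattern. Of 33 measured promoters among 43 genes, 28 (84.8%) were at 50% or more and 2 under 5%, with a median of 87.6%, where 6.79% of all measured promoters reached 50%. Only 5 of the 33 were at 1 CPM or more. Among them were Piwil2, a piRNA-binding protein, with 21.2, 14.4 and 19.9 CPM and a promoter at 83.6%, 87.1% and 70.8%, and Sycp3, of the synaptonemal complex, with 2.42, 2.56 and 2.56 CPM and a promoter at 81.1%, 78.4% and 82.5%. Taf9b, a gene that body cells also use, had 17.4 CPM and a promoter at 8.71% ± 1.77. Stag3, a meiotic cohesin subunit, had 13.6 CPM and a promoter at 0.49% ± 0.49 over 23 sites. Mei1 and Zpbp2 were below 1 CPM with promoters at 11.5% and 0.87%, so the list was not uniform. The list was drawn up as genes known for methylated promoters, which fixes its direction in advance.

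Pluripotency genes were silent in the main and split by promoter. Of 12 measured promoters, 7 (58.3%) were at 50% or more and 4 (33.3%) under 5%, beside 6.79% and 81.1% over all genes. The methylated group included Dppa4 at 83.7% ± 2.08 and Pou5f1 at 53.4% ± 7.57. The unmethylated group was Lin28a at 0.47%, Utf1 at 1.06%, Fgf4 at 1.16% and Sall4 at 1.51%, all of them at or near 0 counts.

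Transcription factors of other lineages were mostly silent or close to it. Of 50 genes, 48 promoters were measured, of which 27 had 0 counts and only 3 reached 1 CPM. Of the 48 promoters, 36 (75%) lay under 5%, beside 81.1% over all genes, and the median was 1.57% beside 0.798%. Pax2, of kidney and eye, had 0 counts and a promoter at 1.52%, 1.19% and 1.10% over 129 sites. Barhl2, of retina and forebrain, had 0 counts and a promoter at 0.57%, 1.12% and 0.74% over 95 sites. Of these 48 only Six3 and Hand1 reached 50%, at 53.1% ± 5.25 and 55.8% ± 5.66. Their distal bodies were low as well, with a median of 13.1% in 37 genes beside 78.5% over all genes.

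Hox genes set position along the body and limb axes. Of 34 measured promoters 20 (58.8%) lay under 5%, beside 81.1% over all genes, and 1 (2.94%) at 50% or more, beside 6.79%. Hoxa10 had the highest CPM per kb of those measured, with 38.1, 42.4 and 39.1 CPM, a promoter at 0.40%, 0.00% and 0.00%, and a distal body at 1.09%. Hoxa5 was at 51.6% ± 5.87 over 50 sites with 6.26 CPM. Hoxd12, with 0 counts, lay at 17.0% ± 3.27.

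Imprinted genes, known for expression from a single parental copy in at least some tissues, filled the middle of the scale. The parental copies were not told apart here. Of 29 measured promoters 16 (55.2%) lay between 5 and 50%, beside 12.1% over all genes, with a median of 32.4%, and 26 belonged to genes at 1 CPM or more. Plagl1, a zinc finger growth regulator, lay at 40.3%, 44.2% and 40.2% over 42 sites with 645 CPM, and Zrsr1 at 43.0% ± 4.09 over 31 sites. Igf2, the growth factor, had 2745 CPM and 2.29% ± 2.08, and Grb10 had 691 CPM and 1.52% ± 0.30 over 97 sites, so not every imprinted promoter was intermediate. Peg10 and Sgce, and likewise Peg3 and Usp29, share their sites. Airn rested on 4 sites that read 39.7%, 72.9% and 8.33%, too far apart to place it.

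**Figure D5:**
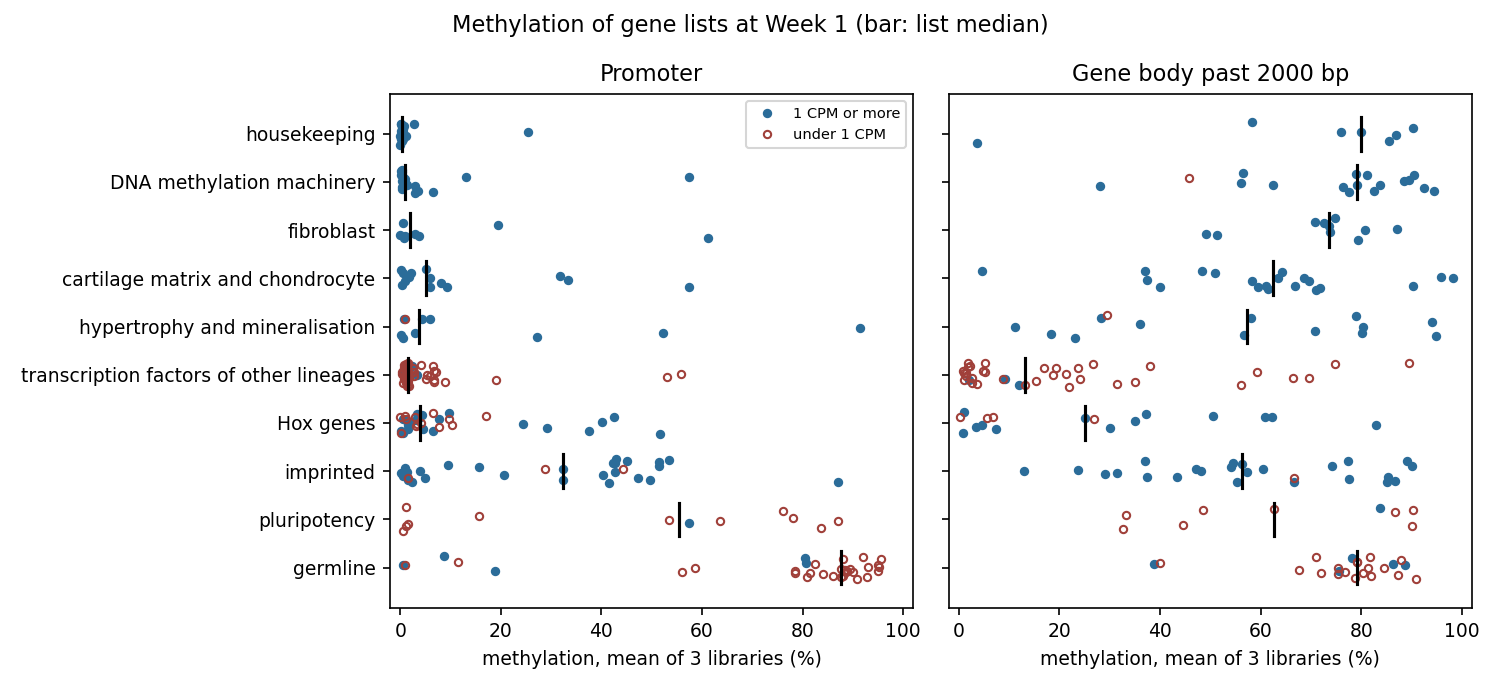
Methylation (%, x axis, mean of 3 ERRBS libraries) of each measured gene of 10 lists, at the promoter and in the gene body past 2000 bp; filled points are genes at 1 CPM or more, open points genes below, and bars the list medians. Promoter medians run from 0.419% (housekeeping) to 87.6% (germline), and transcription factors of other lineages have the lowest distal body median at 13.1%.

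A small set of expressed genes carried a methylated promoter window. Of 8156 measured genes at 10 CPM or more in each RNA-seq library, 84 (1.03%) had 50% or more in each ERRBS library. Of these, 5 had high, 39 intermediate and 40 low CpG content. Among all 6451 measured promoters at a mean of 10 to 100 CPM, 5415 were high, 917 intermediate and 119 low. At a mean of 100 CPM or more, 1725, 184 and 25 of 1934 were. The 84 genes were chosen on both values, so no test is given. Their windows held a median of 5 measured sites, against 37 in the other genes at that level. A further RefSeq 5′ end was known for 35 of the 84, and 18 of these 35 had one under 5%. A site within 200 bp of the 5′ end was measured in 29 of the 84, and averaged 50% or more in 22 and under 5% in 5. The shares with a further 5′ end or such a site were not computed for the other genes at that level. The count of 84 became 10 where 10 sites were required and 47 at 10 CPM per kb, so most of the 84 had fewer than 10 measured sites.

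The positions of the sites show what these levels cover. In Col9a1 (chromosome 1, 24177610 to 24252738, plus strand) the promoter read 53.7%, 68.2% and 50.1% at 3709 CPM. Its 3 sites lay 911 to 1437 bp before the 5′ end, and another start, 17593 bp away, lay at 9.22%. In Crtap, a cofactor of collagen prolyl hydroxylation with 123 CPM, the promoter read 88.0%, 88.0% and 84.6%, and all 4 sites lay 1101 to 1151 bp upstream. Mgp (matrix Gla protein, an inhibitor of calcification) had 474, 459 and 487 CPM and 58.1%, 59.5% and 60.8% over 8 sites, the nearest 43 bp away, with single sites from 0.617% to 97.8%. Col18a1, Arhgef3, Aebp2 and Ghr, with methylation between 61.5% and 75.5%, each had another start at 1.28% or less. Meg3, an imprinted noncoding RNA, had 87.1% ± 3.52 over 5 sites, all of them at 78.5% or more. Bicral and Aldoc, at 68.5% and 82.6% with 100.5 and 92.6 CPM, completed the 10 with the highest CPM.

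Silent genes divided into those with unmethylated and those with methylated promoters. Of 788 genes with 0 counts and a measured promoter, 344 (43.7%) were under 5% in each ERRBS library. High CpG promoters were 283 of the 788 and 225 of the 344. Of the 344, those with the most measured sites were Mpped1, Pax2, Bnc1, Hmx1, Grid1, Shisa6, Sall3, Lhx4, Ajap1 and Mir1247, with 105 to 145 sites and levels of 0.769% to 2.28%. Grid1 encodes a delta-type glutamate receptor subunit, and Hmx1 a homeobox factor of the eye and ear. The distal body of Hmx1 was at 1.14% and that of Grid1 at 61.0%.

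The 788 silent genes had 283 high, 347 intermediate and 158 low CpG promoters. At 50% or more in each ERRBS library were 241 (30.6%) silent genes, of which 17 had high, 113 intermediate and 111 low CpG content. ERRBS replicate 3 limits this number, since without it 422 silent genes met the limit. It was 41 where 10 sites were required and 80 at a coverage of 20. Meiosis genes were among the best sampled, with Hormad1 at 82.9%, 84.5% and 84.6% over 29 sites, Sycp1 at 86.4%, 86.0% and 90.4% over 25, and Spo11, the meiotic double-strand break enzyme, at 91.3%, 88.5% and 87.6% over 23. Naa11, an acetyltransferase known from the testis, and its divergent neighbour 4930467D21Rik share 25 sites at 81.4% ± 1.00. Znrf4, Gm15455, Pramel1, Fgf6 and Mir200c lay between 56.0% and 90.7%. The RNA libraries were selected for poly A, so a count of 0 says little of microRNA precursors such as Mir1247 and Mir200c.

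At the other end stood the most expressed genes with an unmethylated promoter. By CPM they were Malat1, Col2a1, Fn1, Hspa5, Col11a1, Bsg, P4hb, Eef2, Ero1a and Eef1a1, with promoters from 0.0741% to 1.83%. They include Hspa5, P4hb and Ero1a, which fold and oxidise proteins in the endoplasmic reticulum, and Bsg, a partner of lactate transporters. Per kb of transcript, Malat1 had 6410 CPM, Bsg 3660 and Hspa5 3051.

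Gene bodies spanned the whole scale among expressed genes with unmethylated promoters. Of genes at 10 CPM or more with promoters under 5%, the highest bodies past the promoter window were in Pdk3, Rapgef6, Aen, 4930430F08Rik and Zfp799, from 98.2% to 99.1%. Among the lowest were 4933434E20Rik, Ahsa2, Akirin1 and Arl16, each at 0.00% and named in alphabetical order among ties, and none of these 4 had the 3 sites needed past 2000 bp. The promoters of these genes with the highest and the lowest bodies lay between 0.0668% and 1.44%.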

How the data were processed

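Per the series design, reads were trimmed with Flexbar, aligned with STAR and counted with featureCounts over RefSeq transcripts; the deposited values are raw read counts. The submitters' processing notes name CASAVA 2.17, Bismark and mm10. Per the file headers, each ERRBS table gives the coverage of a cytosine as a read count and the percent of reads with C or T, listed from 10 reads upward, strands separate. No source used here gives versions of STAR, featureCounts or Bismark, the strand setting or any removal of duplicates.

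Of 30048 transcripts, 29447 were placed once on GRCm38.p6. Unplaced genes held 2.34% of the counts. Counts were scaled to CPM by edgeR 4.0.16 (TMM) in R 4.3.3, with DESeq2 1.42.0 size factors as an alternative. Regions, Spearman rho and class means were computed in Python 3.11.15 with pandas 2.3.3. Promoter levels and their rho were tested on simulated data, for genes whose promoter windows share no site. The other regions and the class means were not tested in this way. All measured cytosines lie at a CpG of GRCm38. Promoter windows of 3553 genes overlap another gene's, so these genes share sites. Genes on opposite strands cannot be told apart in the counts, as no strand marking is described.

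The 18 gene lists matched 365 of 368 genes; Polr2a, H19 and Cd68 were not analysed here. Genes and lists were chosen with earlier results of these data known. The rule named, per list, the 2 members with the highest and the 2 with the lowest CPM per kb among measured promoters. It also named the 10 highest by CPM among expressed methylated and among unmethylated promoters, the 10 with most sites in each silent group, and 5 bodies at each extreme, of which 1 gene is not reported here. Other named list members were picked after their values were seen. Alternatives changed 1 choice at a time (scaling, filters, coverage, site number, strand handling, region, transcript choice or library), except the added one, which changed the start of the gene body and removed promoter windows together.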

Additional observations from a re-analysis of the deposited data

How the results depend on the processing

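No paired analysis was possible because no result compares 2 groups of samples: the permutation tests pair expression classes within each ERRBS library, RNA-seq and ERRBS libraries are different assays, and their numbers do not tie them to the same pellets. Over 16 alternatives the number of genes with 0 counts and promoters under 5% ran from 274 to 419. The promoter class gap kept its sign and ran from 10.4 points at 10 or more sites to 35.03 points without ERRBS replicate 3. CpG-poor promoters are thinly sampled, which limits counts of methylated promoters. Promoter rho was -0.223 at 0.5 CPM or more, -0.310 at a coverage of 20, -0.291 at 10 sites, -0.403 for genes with 1 transcript and -0.428 for windows that overlap no other. In the same order first intron rho was -0.217, -0.327, -0.302, -0.374 and -0.367, and gene body rho was -0.162, -0.233, -0.222, -0.331 and -0.347. Per kb, first intron rho was -0.399 and gene body rho -0.360. Without the promoter window they were -0.309 and -0.052. Gene body rho was -0.311 with strands joined and -0.310 with reads pooled. From 2000 bp it was 0.269 and the class gap -11.6 points; with any RefSeq promoter window removed as well, an alternative chosen after seeing the data that changes both choices together, they were 0.287 and -12.5. Expressed genes with methylated promoters numbered 47 per kb, 39 at a coverage of 20, 10 at 10 sites, 40 with a promoter of 500 bp on either side and 53 with 1 transcript. Silent genes with methylated promoters numbered 80 at a coverage of 20 and 41 at 10 sites. Leaving out each library gave promoter rho of -0.419 to -0.369, first intron rho of -0.382 to -0.347 and gene body rho of -0.346 to -0.314. It gave 243 to 422 silent genes with methylated promoters, the highest without ERRBS replicate 3, and 85 to 116 expressed ones. The causes were not tested beyond what the settings themselves remove.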

Other observations

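Promoters on the X chromosome were as low as those of the autosomes in the median. Among high CpG promoters of genes at 1 CPM or more, 168 of 185 on X lay under 5%, with a median of 0.310%, against 8322 of 8933 on chromosomes 1 to 19 with a median of 0.595%. A level between 20 and 60% was found in 4 X promoters (2.16%) and 85 autosomal ones (0.952%), and the 4 are Flicr, Hprt, Rlim and Syap1, named after their values were seen. Among gene families, ribosomal protein genes had 68 of 79 measured promoters (86.1%) under 5% and zinc finger genes named Zfp 252 of 285 (88.4%), both near the 81.1% of all genes. The Zfp genes had a distal body median of 87.7%, beside 78.5% over all genes. Olfactory receptor promoters were measured in 14 of 1105 genes, 11 of them at 50% or more, and keratin-associated genes in 4 of 53, all 4 at 50% or more. Of all measured promoters, 6.79% reached 50%. Of the 14, 7 had intermediate and 6 low CpG content, and all 4 keratin-associated promoters were low. The median of all measured low CpG promoters was 60.5%.

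Among 1500 genes at 100 CPM or more with a measured distal body, 50 had less than 25% methylation there in each ERRBS library, chosen after their values were seen. Hdlbp, a lipoprotein- and RNA-binding protein with 1217 CPM, had 6.36% over 91 sites, of which 58 lie in the promoter window of another RefSeq 5′ end, of the same or another gene. Its other sites averaged 17.1%. In Macf1, a cytoskeletal linker, 194 of 292 sites lie in such windows, and the others averaged 56.8% beside 19.4% for all. Nsd1, a histone methyltransferase that writes H3K36 methylation, had 13.03% over 94 sites, and Chd9, a chromatin remodeller, 13.2% over 237 sites, none of them in such a window. Outside these windows 43 of the 50 kept 3 or more sites, and 25 of the 43 averaged under 25%. The share of sites in such windows was not computed over the 1500 genes, so whether the overlap is particular to the 50 was not tested.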
